A study of Homo sapiens with 40 samples.

Results

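The genes described here are 51 genes of DNA replication and of the E2F pathway, taken by name from a fixed list. That list was chosen with earlier results of these data known. All 51 were measured, among 18417 named genes of the array, each through a probe set whose platform annotation holds that symbol alone. The list was split by role into origin licensing, the MCM helicase, helicase activation, polymerases and primase, clamp and lagging strand processing, nucleotide supply, the E2F factors with CDC25A, and chromatin and histone supply. Total RNA of MDA-MB-231 cells, a human breast cancer line that lacks the oestrogen and progesterone receptors, was hybridised to 40 arrays of the Affymetrix Human Gene 1.0 ST type.

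The arrays form 10 groups of 4 replicates, and every value is a log2 signal after RMA, so that a difference of 1 is a doubling. RMA corrects background, gives arrays that are processed together the same distribution and summarises the probes of a probe set. Whether the lots were processed together is not stated. Lot I held mock-treated control cells, cells with 30 µM zoledronate and cells with 2 µM fluvastatin, each for 12 h or 24 h. In lot II were cells with 30 µM zoledronate for 48 h, cells with 100 µM zoledronate for 24 h, and mock-treated cells of each of these times. Control cells received the solvent, and all cells were kept in medium with serum. Fluvastatin is a statin, which inhibits HMG-CoA reductase, and zoledronate is a nitrogen-containing bisphosphonate, which inhibits farnesyl diphosphate synthase further down the same mevalonate pathway. The study compared each treatment with mock-treated cells of the same time. Dose and lot change together for zoledronate at 24 h, since 30 µM lies in lot I and 100 µM in lot II, so that a difference between these doses cannot be told apart from a difference between the lots.

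In each cell cycle the origin recognition complex marks the start sites of DNA synthesis, and CDC6 and CDT1 load the MCM2 to MCM7 ring there during G1. CDC45 and the GINS complex turn that ring into the active helicase, and polymerases, the PCNA clamp and its RFC loader follow. Transcription of most of these genes is driven at the G1 to S transition by E2F factors, which the retinoblastoma protein family holds in check until cyclin-dependent kinases release them. Because whole cultures were measured, fewer cells that express a gene and less RNA per cell cannot be told apart.

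Of the line's markers, VIM, CD44 and MKI67 were high, with group means of 12.18 to 12.46, 10.93 to 11.24 and 9.97 to 11.0. ESR1 and PGR were low, at 4.80 to 5.09 and 4.54 to 4.81. ERBB2, which was expected to be low, lay between these, at 7.73 to 8.19. Over all 40 arrays the array medians lay between 6.19 and 6.33. Of 12 markers of blood, vessel and stromal cells, PECAM1, PDGFRB and CD14 rose with 100 µM zoledronate, by 1.30 ± 0.16 (SE), 0.48 ± 0.11 and 0.42 ± 0.13 (limma, adjusted p = 7.16e-07, 0.00134 and 0.0134). The mean of the 12 markers was 5.00 to 5.14 in the 24 h controls of lot II and 5.19 to 5.31 with 100 µM. With fluvastatin at 24 h PECAM1 and CD14 rose, and the mean of the 12 was 5.06 to 5.31 against 5.07 to 5.14 in controls. At 48 h PECAM1 rose, and the mean was 5.15 to 5.31 against 5.01 to 5.24. The leukocyte marker PTPRC stayed at group means of 3.23 to 3.53, while COL1A1, the brightest of the 12, was at 7.21 to 7.39. RMA values have no true zero. The part of these markers in the results below was not tested.

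Some arrays stood apart in the 51 genes before any test. The mean over the 51 genes was 9.46 to 9.55 in the 24 h controls of lot II, and 9.11, 8.91, 8.89 and 8.84 with 100 µM zoledronate. In the 48 h group with 30 µM zoledronate it was 9.35, 8.43, 9.15 and 9.36, where replicate 2 was the lowest of all 40 arrays. Its controls were 9.50, 9.37, 9.04 and 9.11, and so spread more widely than the controls of any other time. With fluvastatin at 24 h the means were 8.96, 9.34, 9.27 and 9.21, with replicate 1 the lowest, against 9.38 to 9.54 in its controls. The median standard error of the 51 genes was 0.12 with all arrays and 0.085 without the 48 h replicate 2 pair, while that of all genes was 0.094 and 0.088. The counts of the 51 genes that passed are therefore given with and without that pair.

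**Figure D1:**
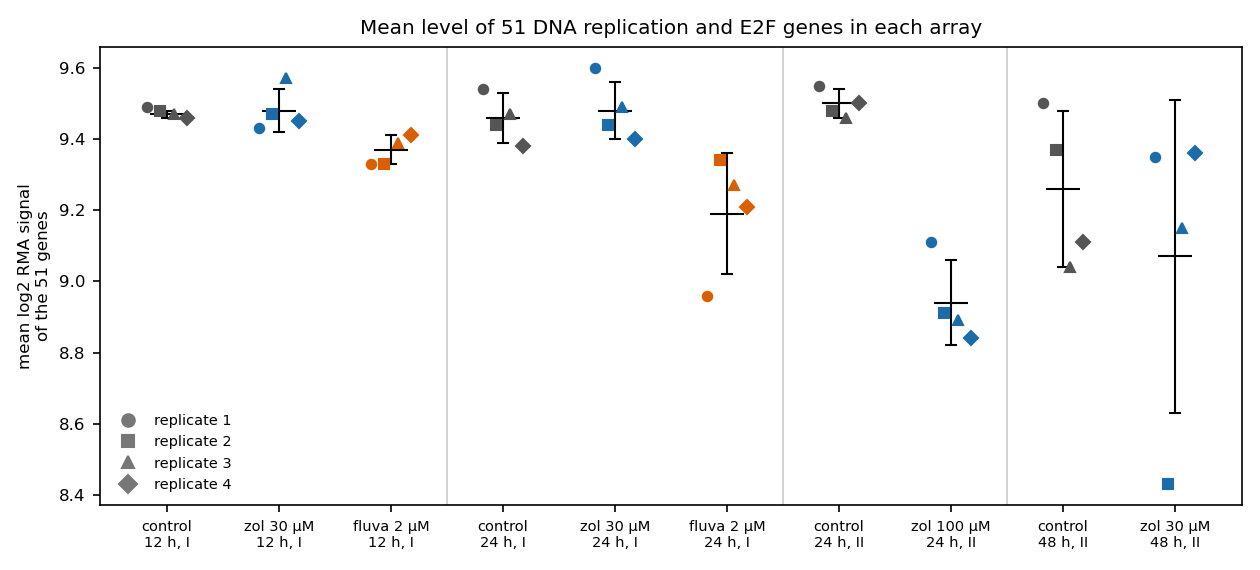
Mean log2 RMA signal of the 51 genes (vertical axis) in each of the 40 arrays, by group (I and II are the lots, zol is zoledronate, fluva is fluvastatin). Points are arrays with 1 marker shape per replicate number and bars are the mean and SD of 4 arrays; the 4 arrays with 100 µM zoledronate (8.84 to 9.11) lie below their controls (9.46 to 9.55), and replicate 2 at 48 h (8.43) lies lowest of all.

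Under 100 µM zoledronate for 24 h, 42 of the 51 genes fell and none rose, while 9 did not pass the test (limma on pairs of treated and control arrays, Benjamini-Hochberg over all 18417 genes, threshold 0.05, two-sided). Over all named genes 16.6% fell and 15.3% rose in this comparison. The median change of the 51 genes was -0.57, against 0.01 for all genes. In 45 of the 51 genes every treated array lay below every control array, which held for 17.4% of all genes. All 4 replicate pairs were lower in 49 of the 51 genes, which was not counted over all genes. The pair medians were -0.45, -0.56, -0.55 and -0.68. Over all genes, deviations from the group mean correlated between the treated and control arrays of these pairs at 0.26, -0.09, 0.09 and -0.07. Without the 48 h replicate 2 pair, 48 of the 51 genes fell, with 18% of all genes as background. Of the 42 genes, 35 passed in each of the 13 alternative settings tried, and CDC45, CDT1, FEN1, GINS1, ORC1, POLD1 and RRM1 lost their call in at least 1 of them.

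**Figure D2:**
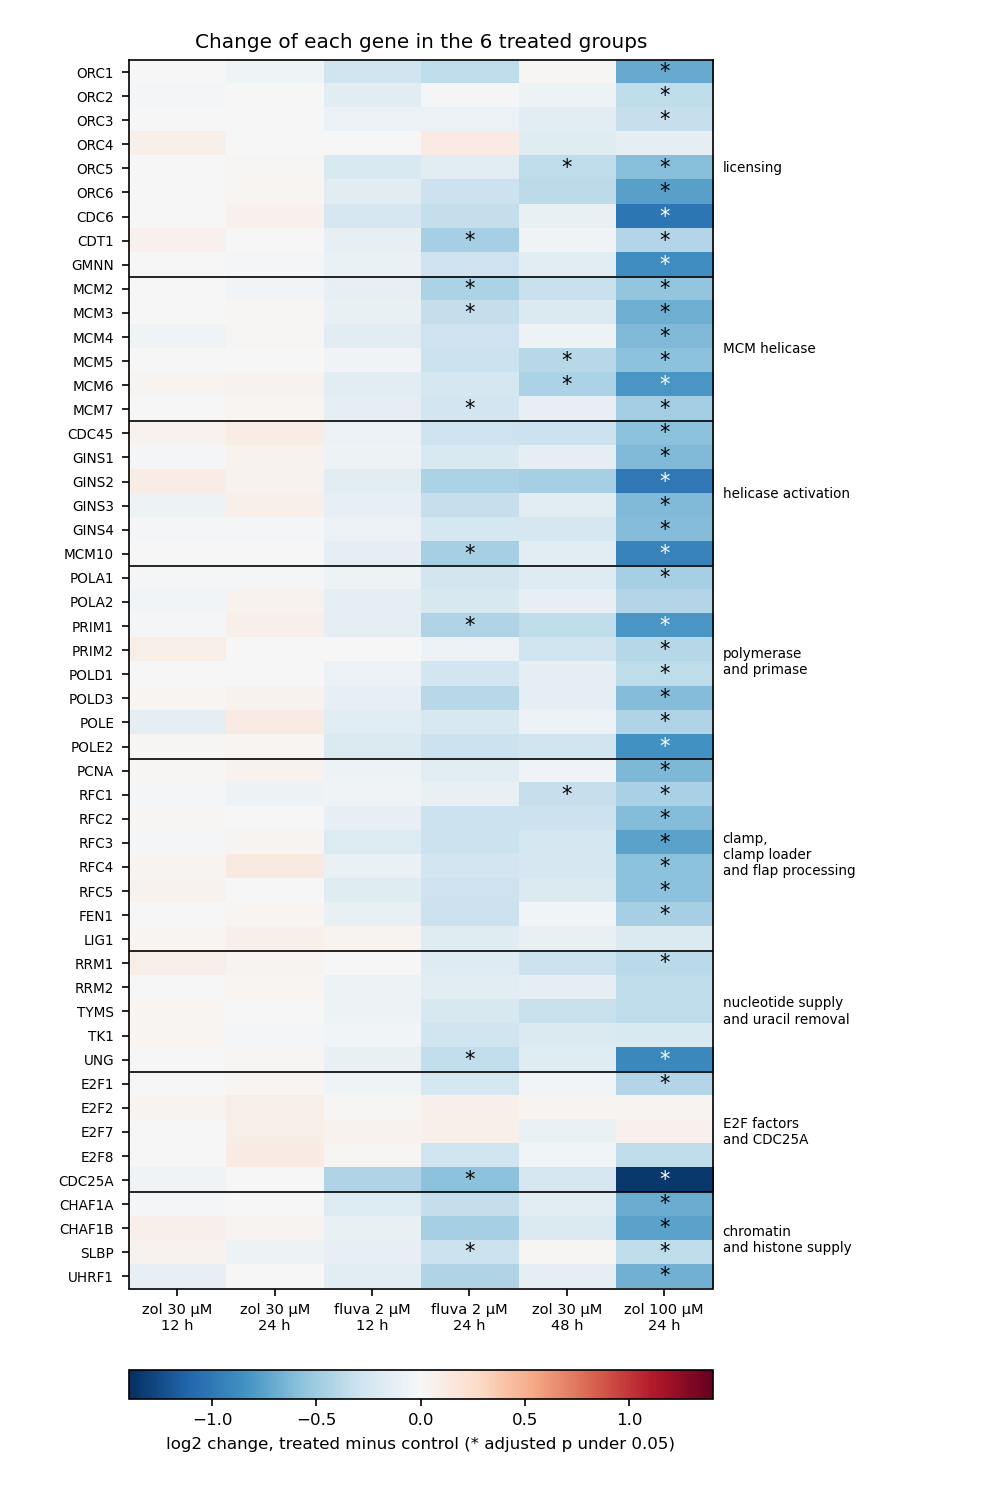
Log2 change (colour, treated minus control, 4 pairs) of each of the 51 genes (rows, by role) in the 6 treated groups (columns), with a star where the adjusted p was under 0.05. Stars fill 42 of 51 cells at 100 µM zoledronate, 9 at 24 h of fluvastatin, 4 at 48 h of 30 µM zoledronate and none in the other columns.

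Among the licensing genes 8 of 9 fell under 100 µM zoledronate, with a median change of -0.60. CDC6, the ATPase that loads the MCM ring with CDT1, was at 11.19, 11.06, 10.85 and 10.85 in the controls and at 10.36, 9.94, 9.83 and 9.79 in the treated arrays. The groups did not overlap, and CDC6 fell by 1.01 ± 0.16 (SE, n = 4 pairs), 2.01-fold (limma, adjusted p = 2.62e-05). GMNN, which encodes geminin, the inhibitor of CDT1, was at 9.62, 9.77, 9.60 and 9.82 in controls and at 9.10, 8.82, 8.72 and 8.68 with 100 µM, and fell by 0.87 ± 0.17 (adjusted p = 0.000298 by limma). CDT1 itself changed less: its controls were 8.31, 8.20, 8.22 and 8.21, its treated arrays 8.07, 7.74, 7.67 and 7.83, and it fell by 0.41 ± 0.12 (limma, adjusted p = 0.00981). The loader and its inhibitor thus both fell, each with all treated arrays below all controls.

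Within the origin recognition complex the subunits were unequal. ORC6 and ORC1 fell by 0.76 ± 0.16 and 0.71 ± 0.21, ORC5 by 0.60 ± 0.09, and ORC2 and ORC3 by 0.36 ± 0.06 and 0.32 ± 0.08. ORC5 differed by -0.59 to -0.62 in every pair, at 8.82, 8.82, 8.76 and 8.77 in controls and 8.20, 8.23, 8.15 and 8.18 with 100 µM. ORC4 did not pass: it was at 8.65, 8.67, 8.82 and 8.77 in controls and at 8.57, 8.58, 8.56 and 8.66 in treated arrays, which overlap, with a change of -0.13 ± 0.07 (limma, adjusted p = 0.156). In the other 5 treated groups the change of ORC4 was at most 0.17 in size, and none passed the test.

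All 6 subunits of the MCM2 to MCM7 ring, the replicative helicase, fell under 100 µM zoledronate, by 0.49 to 0.82. MCM6 was at 10.24, 10.20, 10.20 and 10.26 in controls and at 9.62, 9.37, 9.33 and 9.31 in treated arrays. It fell by 0.82 ± 0.08, 1.77-fold (limma, adjusted p = 7.29e-08), the smallest p of the 51 genes in any comparison with control. MCM7, the subunit with the smallest change, was at 10.97, 10.94, 10.88 and 10.91 in controls and at 10.57, 10.45, 10.45 and 10.26 with 100 µM, and fell by 0.49 ± 0.07 (limma, adjusted p = 7.16e-06).

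The 6 genes of helicase activation fell as well, with a median change of -0.62. GINS2, a subunit of the GINS complex, was at 8.93, 9.07, 9.05 and 8.98 in controls and at 8.24, 7.91, 7.99 and 7.91 in treated arrays, and fell by 1.00 ± 0.18 (limma, adjusted p = 0.000133). MCM10, which is needed for origin firing but is not part of the ring, was at 9.67, 9.56, 9.57 and 9.56 in controls and at 9.01, 8.59, 8.60 and 8.42 with 100 µM, and fell by 0.94 ± 0.15 (limma, adjusted p = 2.31e-05). The remaining GINS genes and CDC45 moved less, by -0.57 to -0.62. CDC45, which completes the active helicase, was at 9.57, 9.48, 9.40 and 9.53 in controls and at 9.23, 8.85, 8.85 and 8.77 in treated arrays (a fall of 0.57 ± 0.15).

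Of the polymerase and primase genes 7 of 8 fell, with a median change of -0.44. POLE2, the second subunit of leading strand polymerase epsilon, was at 9.26, 9.16, 9.34 and 9.28 in controls and at 8.61, 8.32, 8.41 and 8.30 in treated arrays, and fell by 0.85 ± 0.20 (limma, adjusted p = 0.00195). PRIM1, the catalytic primase subunit that makes RNA primers, was at 10.12, 10.09, 10.05 and 10.19 in controls and 9.42, 9.31, 9.39 and 9.06 with 100 µM, and fell by 0.82 ± 0.11 (limma, adjusted p = 3.51e-06). The catalytic subunits of the main polymerases changed less. POLA1, POLD1 and POLE fell by 0.46 ± 0.10, 0.36 ± 0.12 and 0.42 ± 0.11, and POLD1 was at 8.71, 8.62, 8.57 and 8.61 in controls and at 8.41, 8.20, 8.24 and 8.23 in treated arrays. POLA2, the accessory subunit of polymerase alpha, changed by -0.41 ± 0.16 and did not pass (limma, adjusted p = 0.0545), although its arrays did not overlap. It passed without the 48 h replicate 2 pair, where its standard error was 0.08 (limma, adjusted p = 0.000144).

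Among the clamp, clamp loader and flap processing genes 7 of 8 fell. PCNA, the sliding clamp, was at 11.08, 10.99, 11.00 and 10.97 in controls and at 10.62, 10.20, 10.39 and 10.33 with 100 µM, a fall of 0.63 ± 0.11 (limma, adjusted p = 9.7e-05). All 5 subunits of its RFC loader fell, by 0.45 to 0.75. RFC3 was at 11.27, 11.12, 11.10 and 11.07 in controls and at 10.54, 10.45, 10.37 and 10.20 in treated arrays (a fall of 0.75 ± 0.10). FEN1, the nuclease that trims Okazaki fragments, fell by 0.46 ± 0.14. LIG1, the ligase that seals them, did not pass: it was at 9.10, 9.04, 8.94 and 9.00 in controls and at 8.87, 8.75, 8.89 and 8.77 in treated arrays, a change of -0.20 ± 0.13 (limma, adjusted p = 0.278). LIG1 passed without the 48 h replicate 2 pair (adjusted p = 0.0208 by limma).

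Of the genes of nucleotide supply and uracil removal 2 of 5 fell, with a median change of -0.36. UNG, the glycosylase that removes uracil from DNA, was at 9.69, 9.57, 9.61 and 9.60 in controls and at 8.91, 8.63, 8.65 and 8.69 with 100 µM, and fell by 0.90 ± 0.11, 1.87-fold (limma, adjusted p = 5.05e-07). RRM1, the large subunit of ribonucleotide reductase, fell by 0.38 ± 0.14 (limma, adjusted p = 0.0362). RRM2, the small subunit of the same enzyme, was at 9.86, 9.82, 9.83 and 9.91 in controls and at 9.82, 9.21, 9.36 and 9.62 in treated arrays. Treated replicate 1 reached the lowest control, so that the groups touched, and the change of -0.35 ± 0.31 did not pass (limma, adjusted p = 0.453). TYMS, thymidylate synthase, had nearly the same difference in each pair, from -0.34 to -0.38, with controls at 11.57, 11.48, 11.39 and 11.40 and treated arrays at 11.23, 11.10, 11.04 and 11.04. It did not pass (-0.36 ± 0.16, limma, adjusted p = 0.0893). TK1, thymidine kinase of the salvage route, was at 10.04, 9.87, 9.91 and 10.02 in controls and at 9.89, 9.68, 9.70 and 9.72 with 100 µM, which overlap in replicate 1, and its change was -0.21 ± 0.16. RRM2, TYMS and TK1 all passed without the 48 h replicate 2 pair, where their standard errors were 0.12, 0.07 and 0.06 (limma, adjusted p = 0.0247, 0.000262 and 0.00547).

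The E2F factors and CDC25A held both extremes of the 51 genes. CDC25A, the phosphatase that activates cyclin-dependent kinases at the start of S phase, was at 9.38, 9.06, 9.01 and 9.18 in controls and at 8.21, 7.71, 7.77 and 7.55 with 100 µM. It fell by 1.35 ± 0.18, 2.55-fold (limma, adjusted p = 2.76e-06), and this was the largest change of the 51 genes. E2F1, an activating E2F factor, was at 8.68, 8.70, 8.67 and 8.46 in controls and at 8.35, 8.18, 8.14 and 8.19 in treated arrays, and fell by 0.41 ± 0.10 (limma, adjusted p = 0.00174). E2F2, also an activator, was at 6.79, 6.76, 6.63 and 6.78 in controls and at 6.91, 6.71, 6.69 and 6.81 in treated arrays, a change of 0.04 ± 0.11 (limma, adjusted p = 0.846). E2F7, a repressor of the family that is itself an E2F target, was at 10.13, 10.04, 9.96 and 9.99 in controls and at 10.18, 10.16, 9.97 and 10.05 in treated arrays, a change of 0.06 ± 0.08 (limma, adjusted p = 0.63). E2F8, the closest relative of E2F7, was at 7.44, 7.41, 7.28 and 7.40 in controls and at 7.36, 6.88, 6.92 and 6.96 with 100 µM. Its change of -0.35 ± 0.18 did not pass (limma, adjusted p = 0.152), and it passed without the 48 h replicate 2 pair (limma, adjusted p = 0.011). ORC4, E2F2 and E2F7 were the genes that passed in neither fit.

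All 4 genes of chromatin and histone supply fell. CHAF1A and CHAF1B, subunits of the CAF-1 histone chaperone that works with PCNA, fell by 0.70 ± 0.15 and 0.75 ± 0.17. CHAF1B was at 8.94, 8.86, 8.94 and 8.93 in controls and at 8.37, 8.15, 8.10 and 8.05 with 100 µM. UHRF1, which directs maintenance DNA methylation, fell by 0.67 ± 0.15, and it was the only gene of the list with a second probe set, which was dimmer. That probe set was not tested alone, and UHRF1 also fell with the mean of its probe sets. SLBP, which binds the stem-loop of histone mRNA, was at 9.43, 9.34, 9.34 and 9.16 in controls and at 8.99, 8.83, 8.97 and 9.03 in treated arrays, a fall of 0.36 ± 0.10 (limma, adjusted p = 0.00493).

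**Figure D3:**
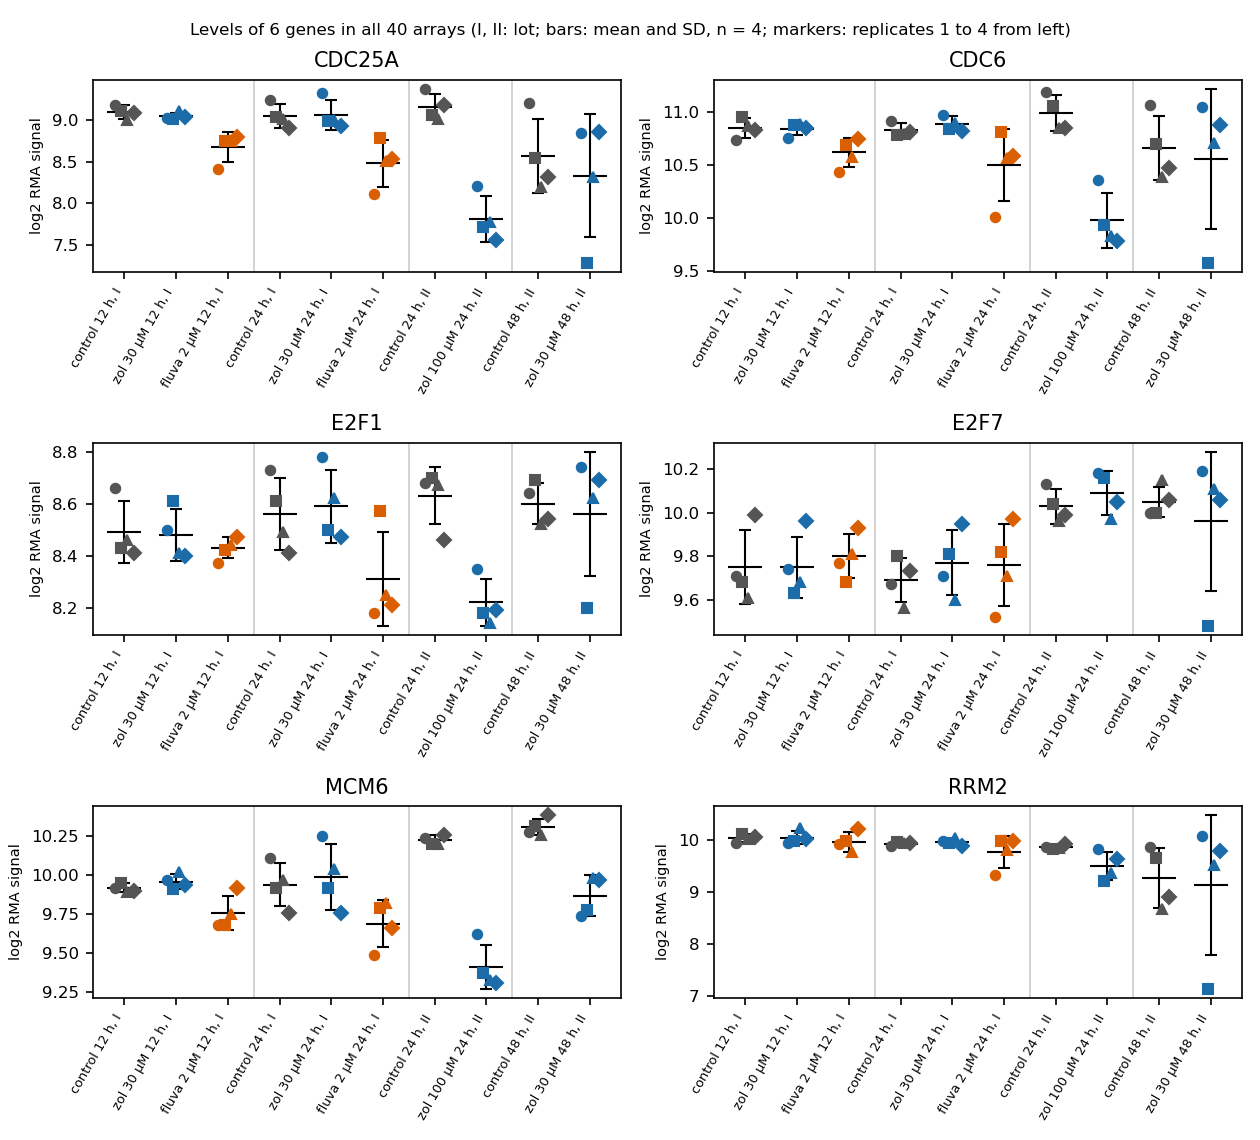
Log2 RMA signal (vertical axes, separate scales) of CDC25A, CDC6, E2F1, E2F7, MCM6 and RRM2 in all 40 arrays by group; points are replicates 1 to 4 from left to right and bars are mean and SD of 4 arrays. CDC25A, CDC6, E2F1 and MCM6 lie below their controls in every array with 100 µM zoledronate, E2F7 overlaps its controls, and RRM2 of replicate 2 at 48 h lies at 7.13.

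Promoter sequences from RefSeq (build GRCh38.p14) were available for 46 of the 51 genes, covering 250 bases before to 50 bases after each start, and MCM4, MCM5, GINS4, POLD3 and E2F8 had none in the table used. They were searched on both strands for the 4 E2F words TTTCCCGC, TTTCGCGC, TTTGCCGC and TTTGGCGC, at the first listed start of each gene. An E2F word was present in 22 of the 46 promoters (47.8%), against 644 of 14239 measured genes with a promoter sequence (4.52%). Among genes that fell under 100 µM zoledronate, 18 of 38 (47.4%) held a word, and among those that did not pass, 4 of 8 (50%) did, namely POLA2, LIG1, TYMS and E2F2. The first 3 of these fell when the 48 h replicate 2 pair was left out. The overlapping word TTCCCGCC was in 11 of 46 (23.9%) and in 4.42% of all, with 10 of the 38 genes that fell (26.3%) and 1 of the 8 that did not pass (12.5%). CCAAT was in 26 of 46 (56.5%) against 36.3% of all, with 24 of the 38 that fell (63.2%) and 2 of the 8 that did not pass (25%). These splits were not tested. TTTGAA, the core of the cell cycle homology region of mitotic promoters, was in 1 of 46 (2.17%), that of RRM1, against 11.9% of all and 16 of 25 (64%) of a list of mitosis genes. A match is a description of letters and not a measured binding site.

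Shown here are the promoter stretches around the words of genes that fell (CDC25A, GINS2, MCM6, PCNA and E2F1) and of genes that did not pass with all arrays (E2F2, LIG1 and POLA2), each on the strand of its gene, 5′ to 3′, with the E2F words in capitals. Without a rule, and leaving out TYMS, the stretches were picked by hand from the 18 fallen and 4 not passed genes with a word. They lie before the start at chr3:48188418-48188477 (minus strand, CDC25A), chr16:85688955-85689014 (minus, GINS2), chr2:135876514-135876603 (minus, MCM6), chr20:5126653-5126712 (minus, PCNA), chr20:33686386-33686445 (minus, E2F1), chr1:23531234-23531293 (minus, E2F2), chr19:48170425-48170484 (minus, LIG1) and chr11:65261882-65261941 (plus, POLA2).
CDC25A: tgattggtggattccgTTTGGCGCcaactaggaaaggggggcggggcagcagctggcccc
GINS2: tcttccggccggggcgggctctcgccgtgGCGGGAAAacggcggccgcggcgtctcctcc
MCM6: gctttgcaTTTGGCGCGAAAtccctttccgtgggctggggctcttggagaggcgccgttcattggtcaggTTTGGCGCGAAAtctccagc
PCNA: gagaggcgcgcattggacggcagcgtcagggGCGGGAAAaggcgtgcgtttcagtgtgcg
E2F1: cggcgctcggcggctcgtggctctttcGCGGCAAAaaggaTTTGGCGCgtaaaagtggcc
E2F2: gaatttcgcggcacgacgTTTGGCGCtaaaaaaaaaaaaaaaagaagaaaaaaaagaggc
LIG1: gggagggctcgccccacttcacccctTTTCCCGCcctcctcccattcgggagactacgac
POLA2: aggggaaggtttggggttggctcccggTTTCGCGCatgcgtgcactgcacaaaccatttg
The word in CDC25A and that in E2F2 are the same, TTTGGCGC, and lie at nearly the same distance from the start, at bases -44 to -37 and -42 to -35. CDC25A had the largest fall of the 51 genes under 100 µM zoledronate, and the change of E2F2 was 0.04 ± 0.11. E2F2 was the dimmest of the 51 genes. Its mean over all arrays was 6.635, little above the array medians of 6.19 to 6.33, while that of CDC25A was 8.728. Whether the low signal hid a change of E2F2 was not tested. MCM6, with the smallest p, holds 4 words in 2 overlapping pairs.

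With 2 µM fluvastatin for 24 h, 9 of the 51 genes fell and none rose, against 3.77% fallen and 6.71% risen over all named genes. They were CDT1, MCM2, MCM3, MCM7, MCM10, PRIM1, UNG, CDC25A and SLBP. The median change of the 51 genes was -0.29 against -0.01 for all genes. Below 0 lay 48 of the 51 and 9663 of the 18417 genes. Of the 51, 39 were lower in all 4 pairs, which was not counted over all genes. In 14 of 51 every treated array lay below every control array (3.8% of all genes). Leaving out the 48 h replicate 2 pair, which belongs to another group but shares the estimate of the spread, gave 30 fallen genes, with 5.23% of all genes fallen and 8.48% risen as background. The calls were few without any of replicates 1, 3 and 4: none of the 51 passed without replicate 1, MCM2 and PRIM1 passed without replicate 3 and MCM2 alone without replicate 4, while 28 passed without replicate 2. Each of these fits left out that replicate number in every group. The fit without replicate 2 thus also lacked the 48 h replicate 2 pair, which the others kept. The share of all genes called moved too, at 1.55%, 3.99% and 4.98% without replicates 1, 3 and 4, and 13% without replicate 2. The pair medians were -0.60, -0.08, -0.21 and -0.21, and without replicate 1 the median change was -0.16. Leaving out replicate 1 of the 24 h arrays of lot I together with the 48 h replicate 2 pair left 5 calls, MCM2, MCM10, PRIM1, TK1 and CHAF1B, with 3.17% of all genes called.

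CDC25A had the largest change here too, with controls at 9.24, 9.04, 9.01 and 8.91 and treated arrays at 8.11, 8.79, 8.51 and 8.53. The groups did not overlap, and it fell by 0.57 ± 0.18 (limma, adjusted p = 0.0463). MCM2, whose p was the smallest, was at 10.35, 10.25, 10.18 and 10.09 in controls and at 9.48, 10.02, 9.83 and 9.78 with fluvastatin, and fell by 0.44 ± 0.10 (limma, adjusted p = 0.00591). CDT1 was at 8.60, 8.26, 8.42 and 8.29 in controls and at 7.78, 8.20, 7.79 and 7.97 in treated arrays, again with no overlap, and fell by 0.46 ± 0.12 (limma, adjusted p = 0.0158). MCM10 was at 9.68, 9.58, 9.66 and 9.58 in controls and at 8.75, 9.33, 9.37 and 9.15 with fluvastatin, a fall of 0.47 ± 0.15. In each of these genes replicate 1 was the lowest treated array, although in CDT1 it lay beside replicate 3.

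By role, fluvastatin at 24 h lowered 3 of 6 MCM subunits, 1 of 9 licensing genes, 1 of 6 genes of helicase activation, 1 of 8 polymerase and primase genes, no gene of 8 in the clamp group, 1 of 5 nucleotide supply genes, 1 of 5 of the E2F group and 1 of 4 chromatin genes. When the 48 h replicate 2 pair was left out the fallen genes were 5 of 6 MCM subunits, 4 of 9 licensing genes, 4 of 6 of helicase activation, 4 of 8 polymerase and primase genes, 4 of 8 in the clamp group, 3 of 5 of nucleotide supply, 2 of 5 of the E2F group and 4 of 4 chromatin genes. CDC6 did not pass, with a change of -0.33 ± 0.16 (limma, adjusted p = 0.207). Its controls were 10.92, 10.78, 10.79 and 10.81 and its treated arrays 10.01, 10.81, 10.57 and 10.59, so that replicate 2 lay within the control range. E2F1 changed by -0.25 ± 0.10 (limma, adjusted p = 0.0987), with treated arrays at 8.18, 8.57, 8.25 and 8.21 against controls at 8.73, 8.61, 8.49 and 8.41. E2F2 and E2F7 each changed by 0.07, with standard errors of 0.11 and 0.08, and ORC4 by 0.12 ± 0.07. These 3 genes were the only ones of the 51 above 0.

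At 12 h of fluvastatin no gene of the 51 passed the test of limma over all genes, where 0.527% of all named genes fell and 0.348% rose, and none passed without the 48 h replicate 2 pair, where 0.928% fell and 0.603% rose. An unadjusted p under 0.05 was found for 3 of the 51 and for 2552 of the 18417 genes. The 3 were ORC2, ORC5 and CDC25A, with changes of -0.15 ± 0.06, -0.21 ± 0.09 and -0.42 ± 0.18. CDC25A was at 9.18, 9.11, 9.00 and 9.09 in controls and at 8.41, 8.75, 8.75 and 8.80 with fluvastatin, which did not overlap (limma, adjusted p = 0.291). The median change of the 51 genes was -0.10 against 0.01 for all genes, and 45 of 51 lay below 0, as did 8555 of the 18417 genes. In 6 of 51 every treated array lay below every control array (2.01% of all genes). Their mean per array was 9.33 to 9.41, against 9.46 to 9.49 in controls. The effect at 24 h was not shown to differ from that at 12 h, since no gene of the 51 and none of the 18417 passed the test of that difference in limma, and 1 of the 51 and 2014 of the 18417 did at an unadjusted p under 0.05.

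With 30 µM zoledronate no gene of the 51 passed at 12 h or at 24 h, and neither did any named gene, so that the background is 0% in both directions at each time. At an unadjusted p under 0.05 none of the 51 passed at either time in limma, while 511 of all genes did at 12 h and 866 at 24 h. The changes of the 51 genes ranged from -0.13 to 0.10 at 12 h and from -0.07 to 0.13 at 24 h, with medians of 0.01 and 0.02. CDC25A was at 9.33, 8.99, 9.00 and 8.93 at 24 h, within 0.1 of its paired control in every pair. The treated arrays of all 51 genes overlapped the controls at both times, whereas all treated arrays lay below all controls in 0.391% of all genes at 12 h and in 1.17% at 24 h.

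**Figure D4:**
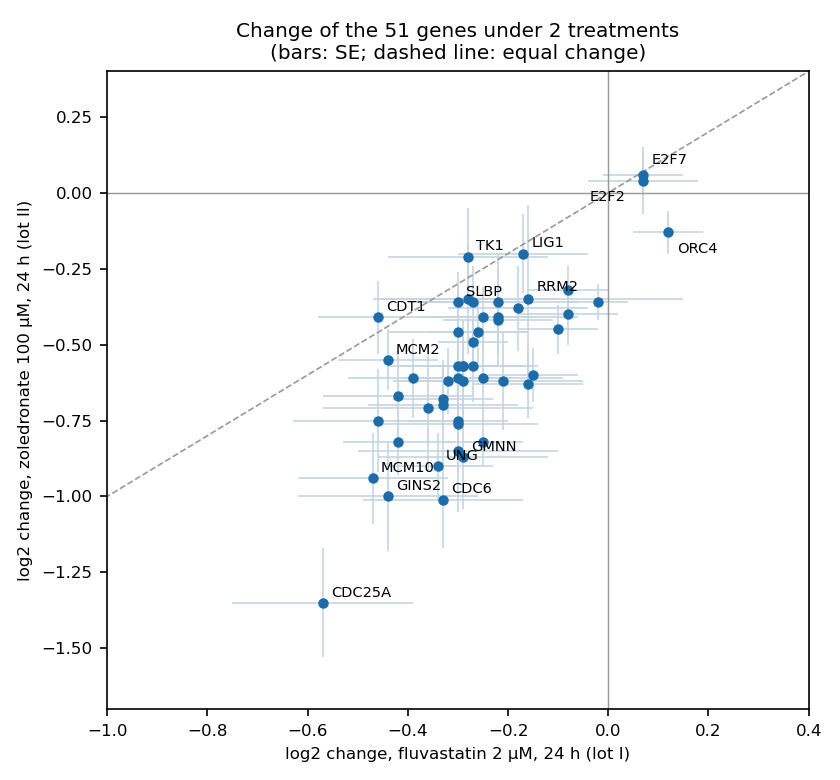
Log2 change of each of the 51 genes (points) with 2 µM fluvastatin at 24 h (horizontal axis, lot I) and with 100 µM zoledronate at 24 h (vertical axis, lot II); bars are standard errors and the dashed line marks equal change. CDC25A lies lowest on both axes (-0.57 and -1.35), E2F2, E2F7 and ORC4 lie to the right of 0 on the horizontal axis, and most points lie below the dashed line.

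Fluvastatin and 30 µM zoledronate shared lot and controls, and so could be compared directly. At 24 h, 10 of the 51 genes were lower with fluvastatin and none higher, against 2.93% lower and 4.3% higher over all genes. The largest differences among them were in PRIM1 (-0.49 ± 0.11, limma, adjusted p = 0.00959), CDT1 (-0.45 ± 0.12, 0.0217) and POLD3 (-0.44 ± 0.13, 0.0383), and MCM2, MCM3, MCM6, MCM7, GINS3, RFC4 and UNG were the others. Leaving out the 48 h replicate 2 pair gave 32, with 4.12% of all genes lower and 5.54% higher. Without replicate 2 of every group, and so again without that pair, there were 33. Without replicate 1 there were none, and PRIM1 alone passed without replicate 3 and without replicate 4. The shares of all genes called, in either direction, were 8.64% without replicate 2, and 0.814%, 1.68% and 2.88% without replicates 1, 3 and 4. At 12 h no gene of the 51 passed (background 0.456% lower and 0.282% higher), and 2 did at an unadjusted p under 0.05 in limma, as did 2363 of the 18417 genes. None passed without the 48 h replicate 2 pair either, where 0.852% of all genes were lower and 0.543% higher.

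Fluvastatin at 24 h and 100 µM zoledronate were measured in different lots and shared no control arrays. All 9 genes that fell with fluvastatin also fell with 100 µM zoledronate, which is 21.4% of the 42. When the 48 h replicate 2 pair was left out all 30 did, 62.5% of 48. Since most of the list fell at 100 µM, a large overlap follows in part from its size. Across the 51 genes the changes had Pearson's r of 0.74 and Spearman's rho of 0.69, as a description over genes that are not independent of each other. Neither the overlap nor the correlation was computed over all genes, and whether they are particular to these genes was not tested. CDC25A was lowest under both treatments, and ORC4, E2F2 and E2F7 were the highest of the 51 under both.

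After 48 h of 30 µM zoledronate 4 of the 51 genes fell, ORC5, MCM5, MCM6 and RFC1, and none rose. Over all named genes 4.43% fell and 3.16% rose. The median change was -0.16, and the pairs went apart: their medians were -0.15, -0.92, 0.12 and 0.24. In pair 2, 50 of 51 genes were lower than in the control, while in pairs 3 and 4 only 13 and 10 were. Of all 18417 genes 8950, 9279 and 9095 were lower in pairs 2, 3 and 4. Over all genes, deviations from the group mean correlated between the treated and control arrays of the 4 pairs at 0.55, -0.19, 0.31 and -0.30. In pairs 2 and 4 the arrays themselves thus gave no sign of the pairing. In 6 of 51 genes every treated array lay below every control array, against 4.35% of all genes.

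MCM6 and ORC5 were the only genes of the list that passed both with and without the 48 h replicate 2 pair. MCM6 was at 10.28, 10.32, 10.26 and 10.39 in controls and at 9.74, 9.78, 9.98 and 9.97 in treated arrays, with every pair lower, and fell by 0.44 ± 0.08 (limma, adjusted p = 0.00242) or by 0.41 ± 0.10 without the pair (limma, adjusted p = 0.00983). ORC5 was at 8.96, 8.84, 8.86 and 8.82 in controls and at 8.42, 8.74, 8.39 and 8.50 in treated arrays, and fell by 0.36 ± 0.09 (limma, adjusted p = 0.0138) or by 0.45 ± 0.10 without the pair. RFC1 and MCM5 fell by 0.32 ± 0.08 and 0.39 ± 0.10 with all arrays. MCM5 was at 9.77, 9.94, 9.69 and 9.61 in controls and at 9.42, 8.93, 9.55 and 9.55 in treated arrays, where replicate 2 was the lowest. MCM6 alone passed without replicate 1 and without replicate 3, where 2.83% and 2.31% of all genes were called.

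Without the 48 h replicate 2 pair the median change of the 51 genes turned to 0.09, and 3 genes rose (ORC1, RRM2 and TK1) while 2 fell, against 3.72% risen and 5.28% fallen over all genes. RRM2 shows the spread most clearly: its controls were 9.86, 9.64, 8.66 and 8.89 and its treated arrays 10.08, 7.13, 9.51 and 9.79. The difference within pairs was 0.23, -2.51, 0.85 and 0.91. With all arrays the change of RRM2 was -0.13 ± 0.31, and without the pair RRM2 rose by 0.66 ± 0.14 (limma, adjusted p = 0.00426). ORC1 had pair differences of 0.01, -1.44, 0.63 and 0.86, a change of 0.02 ± 0.21 with all arrays, and a rise of 0.50 ± 0.13 without the pair. TK1 was at 9.91, 9.80, 9.43 and 9.55 in controls and at 10.00, 8.35, 9.70 and 9.84 in treated arrays, and its change turned from -0.20 ± 0.16 to a rise of 0.22 ± 0.07. In the same genes the 48 h controls of replicates 3 and 4 were the lowest, as they were for CDC25A, which was at 9.21, 8.55, 8.20 and 8.32 in the 48 h controls and at 8.85, 7.28, 8.32 and 8.86 in the treated arrays.

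**Figure D5:**
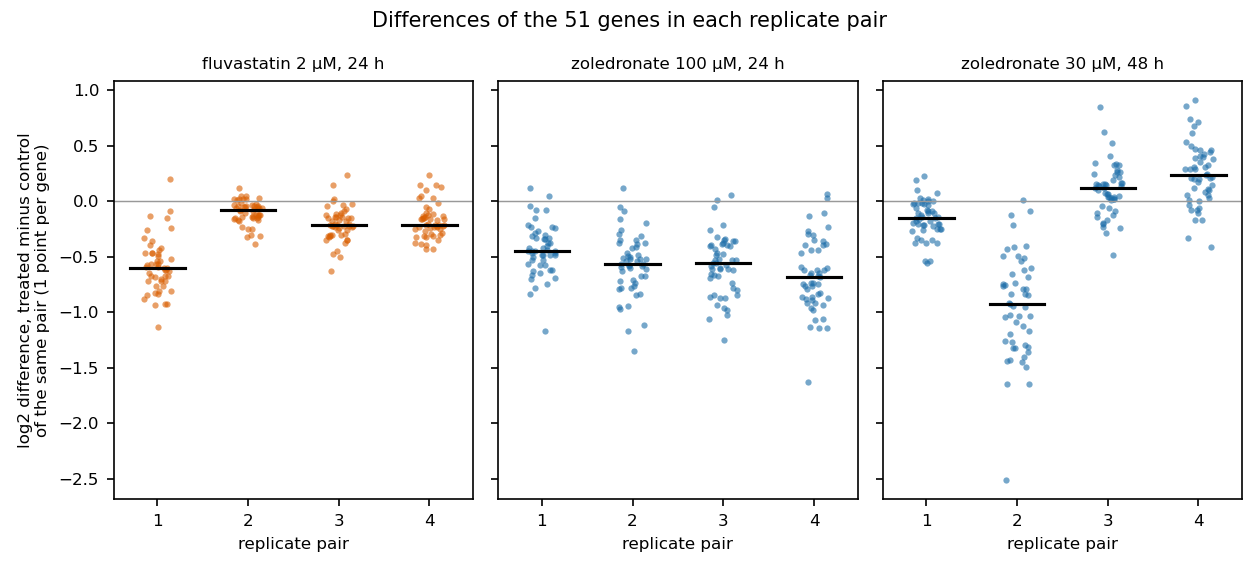
Log2 difference between the treated and the control array (vertical axis) in each replicate pair (horizontal axis) for the 51 genes (points), with the pair median as a bar, for 3 treatments. Medians are -0.60, -0.08, -0.21 and -0.21 with fluvastatin, -0.45, -0.56, -0.55 and -0.68 with 100 µM zoledronate, and -0.15, -0.92, 0.12 and 0.24 at 48 h of 30 µM zoledronate.

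The controls themselves differed little between 12 h and 24 h of lot I: no gene of the 51 and none of all named genes passed (0%), none of the 51 passed at an unadjusted p under 0.05 in limma, and the changes lay between -0.15 and 0.13. Between the 24 h and 48 h controls of lot II no gene of the 51 passed either (background 0.662% lower and 0.358% higher), but 15 had an unadjusted p under 0.05, as did 2371 of the 18417 genes. All 15 were lower at 48 h, and the median difference of the 51 was -0.26. The largest differences among the 15 were in ORC1 (-0.69 ± 0.24), GMNN (-0.68 ± 0.23), E2F8 (-0.63 ± 0.22) and CDC25A (-0.59 ± 0.21). GMNN was at 9.62, 9.77, 9.60 and 9.82 at 24 h and at 9.80, 9.07, 8.51 and 8.70 at 48 h, so that replicate 1 stayed at the 24 h level. Leaving out replicate 1 gave 4 calls, with 3.6% of all genes called. Without the 48 h replicate 2 pair ORC1, MCM4, RRM2 and E2F8 passed, against 0.983% of all genes lower.

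The effect of 100 µM zoledronate at 24 h was set against that of 30 µM at 48 h within lot II, each relative to its own controls. The change was lower at 100 µM in 10 of the 51 genes and higher in none, against 4.32% lower and 3.91% higher over all genes. These were ORC2, CDC6, MCM3, MCM4, MCM7, MCM10, PCNA, RFC3, UNG and CDC25A. CDC25A differed by -1.11 ± 0.26 (limma, adjusted p = 0.00848), UNG by -0.73 ± 0.15 (0.004) and CDC6 by -0.91 ± 0.23 (0.014). With the 48 h replicate 2 pair left out 44 genes differed, against 7.61% of all genes lower and 7.05% higher. In fits that kept that pair, none of the 51 passed without replicate 3 or without replicate 4, where 1.57% and 2.05% of all genes were called. Dose and time changed together in this comparison. Across the 51 genes the changes had r of 0.39 and rho of 0.35, and those of fluvastatin at 24 h and of zoledronate at 48 h 0.19 and 0.14. These correlations were not computed over all genes either.

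Other genes of the pathway, from lists that hold none of the 51, were counted in the same fit. Of 42 further replication and S phase genes, 27 fell and 1 rose with 100 µM zoledronate, with a median of -0.43 (34 and 1 without the 48 h replicate 2 pair). Over all named genes 16.6% fell and 15.3% rose (18% and 16.6% without the pair). TIPIN, a fork protection factor, fell by 1.08 ± 0.11, POLE3, a histone-fold subunit of polymerase epsilon, by 0.77 ± 0.07, and HELLS, a chromatin remodeller, by 0.88 ± 0.12 (limma, adjusted p = 7.69e-08, 1.07e-08 and 5.29e-06). POLD4, the smallest subunit of polymerase delta, rose by 1.07 ± 0.13 (limma, adjusted p = 1.11e-06), opposite to POLD1 and POLD3. With fluvastatin at 24 h POLD4 rose by 0.65 ± 0.13 while POLE3 and TIPIN fell by 0.29 ± 0.07 and 0.43 ± 0.11. These 3 were the only calls of the 42 there with all arrays, and 8 fell and 2 rose without the pair. Of all genes 3.77% fell and 6.71% rose with all arrays, and 5.23% and 8.48% without the pair. At 48 h 5 of the 42 fell, among them DBF4, the activator of the CDC7 kinase (-0.71 ± 0.17), DUT, which removes dUTP (-0.30 ± 0.07), and POLE3 (-0.26 ± 0.07). With that comparison's replicate 2 pair left out, 6 rose and 1 fell. DBF4 was dim in the controls of lot I, with means of 5.2 at 12 h and 5.04 at 24 h. The low marker ESR1 was at 5.07 and 4.83 there. The all-gene shares at 48 h were 4.43% fallen and 3.16% risen with all arrays, and 5.28% and 3.72% without the pair.

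Of 8 other E2F and pocket protein genes, 5 fell and 1 rose with 100 µM zoledronate, with and without the 48 h replicate 2 pair. The all-gene shares were 16.6% fallen and 15.3% risen, and 18% and 16.6% without the pair. The repressive factors E2F6 and E2F4 fell by 0.57 ± 0.05 and 0.42 ± 0.07 and the activator E2F3 by 0.31 ± 0.07, whereas RBL2, the pocket protein p130 of quiescent cells, rose by 0.59 ± 0.09 (limma, adjusted p = 2.04e-08, 1.98e-05, 0.00149 and 2.58e-05). E2F4 also fell with fluvastatin at 24 h (-0.33 ± 0.07, limma, adjusted p = 0.0031), the single call of this list there with all arrays, where 2 fell and 1 rose without the pair. Of all genes 3.77% fell and 6.71% rose, and 5.23% and 8.48% without the pair. At 48 h E2F6 and TFDP2, which encodes a dimer partner of E2F factors, fell by 0.18 ± 0.05 and 0.26 ± 0.08, and 1 of the 8 fell without the pair. The share of all genes that fell was 4.43%, and 5.28% without the pair.

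Genes of mitosis, the part of the cell cycle after S phase, gave another order of the treatments with all arrays. Without the 48 h replicate 2 pair, 100 µM zoledronate had the most fallen genes here too. With 100 µM zoledronate 8 of 29 fell and 1 rose, with a median of -0.30, and without the 48 h replicate 2 pair 23 fell. Of all genes 16.6% fell and 15.3% rose, and 18% fell without the pair. KIF23, a kinesin of cell division, fell by 0.73 ± 0.16, NUF2 of the kinetochore by 0.43 ± 0.13 and CDC20, which activates the anaphase-promoting complex, by 0.70 ± 0.22, while the phosphatase gene CDC25B rose by 0.34 ± 0.10. With fluvastatin at 24 h none of the 29 passed (limma, also none at an unadjusted p under 0.05) and the median was -0.02, while 1 fell without the pair. The shares of all genes that fell were 3.77% and 5.23%. At 48 h of 30 µM zoledronate 12 of the 29 fell with a median of -0.50, led by HMMR (-0.87 ± 0.14), CCNB1, the mitotic cyclin (-0.54 ± 0.12), and NUF2 (-0.60 ± 0.13). Without the pair 5 fell and 1 rose, and the median was -0.08. Of all genes 4.43% fell at 48 h with all arrays, and 5.28% fell and 3.72% rose without the pair. The difference between the mitosis genes and the 51 genes was not tested.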

How the data were processed

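Log2 signals of 40 arrays (10 groups of 4) were used as deposited. Per the submitters' processing notes, the authors made these log2 values with RMA in Affymetrix Power Tools 1.10.2 and tested with limma. No label or header used here names the genome build or says whether the lots were normalized together. The array number limits the precision.

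Of 33297 probe sets, 19460 had exactly 1 gene symbol in the platform annotation, 1754 had several and 12083 were unnamed here. Of the 19460, 19429 matched RefSeq by gene number. The brightest probe set was kept for the 769 genes with more than 1, giving 18417 genes. No dim gene was removed.

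limma 3.58.1 in R 4.3.3 (lmFit, eBayes) fitted all 40 arrays with 16 blocks (lot, time and replicate number) and 6 treated effects, leaving 18 residual degrees of freedom. Benjamini-Hochberg adjustment ran over all genes, with a two-sided threshold of 0.05. Control times were compared by group means without blocks. The design text states pairing by day of measurement. Deviations of same-numbered arrays correlated at 0.17 to 0.60 in all 16 treated pairs of lot I, and at -0.30 to 0.55 in lot II, where 3 of 8 pairs were over 0.1. The steps were tested on simulated data.

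The 51 genes, the other lists and the alternatives were chosen with earlier results of these data known. Any of the 51 may be named. By rule, array values are given for 25 of them: in each role the genes with the largest and smallest change at 100 µM, and CDC25A, CDC6, CDT1, GMNN, MCM10, PCNA, RRM2, TYMS, E2F1, E2F2, E2F7, E2F8 and SLBP. They are printed for the 100 µM comparison, and for other groups where a result turns on them. Of the other lists, the 3 smallest p per direction are named. Array values of other genes were chosen after they were seen.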

Additional observations from a re-analysis of the deposited data

Results flagged for a closer look

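Among 266 sets of 4 values (levels of the 25 genes given by array, means of the 51 genes per array and pair medians), 14 held a value whose gap to the nearest other value was large against the group's range (Dixon's test), and chance flags about 1 in 20 groups. At 48 h of 30 µM zoledronate the lowest array was replicate 2 for CDC45 (7.91), POLD1 (7.78), LIG1 (7.79) and TYMS (9.87). In the controls, the lowest array stood apart for POLE2 at 12 h (8.70), PCNA at 24 h of lot I (10.3), and E2F1 (8.46) and CHAF1B (8.86) at 24 h of lot II, where the highest of MCM10 (9.67) did as well. With 30 µM zoledronate the lowest stood apart for GMNN at 12 h (9.40) and for CDC45 (9.43) and TYMS (11.13) at 24 h. The highest array of E2F8 with 100 µM zoledronate (7.36) and the lowest of CDC25A with fluvastatin at 12 h (8.41) complete the list.

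Effects differed by a direct test in 10 of the 51 genes between fluvastatin and 30 µM zoledronate at 24 h, and in 10 of the 51 between 100 µM zoledronate at 24 h and 30 µM at 48 h (limma, adjusted over 18417 genes). Of all genes, 7.23% and 8.23% differed in either direction. None of the 51 passed without replicate 1 in the first comparison, or without replicate 3 or replicate 4 in the second.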

How the results depend on the processing

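The direction of the 51 genes under 100 µM zoledronate held in all 13 alternatives (37 to 48 genes called, all fallen), and the 30 µM comparisons at 12 h and 24 h gave none in any. Of all genes, these alternatives called 23.8 to 48% at 100 µM, in either direction. For fluvastatin at 24 h (9 called) the count was 3 with no replicate block, 0 with the spread of the compared arrays only, 14 with median centring, with only the 12278 brightest genes or with an intensity trend, 19 with array weights, and 0 to 28 leaving out each replicate. Each replicate number was left out of every group, so that the fit without replicate 2 also lacked the 48 h replicate 2 pair. The count was 30 without that pair alone, and, in fits chosen after seeing the data, 0 without lot I 24 h replicate 1 and 5 without that and the pair. Of all genes these settings called, in the same order, 3.6%, 0.0109%, 10.9%, 18.3%, 12%, 14.1%, 1.55 to 13%, 13.7%, 1.62% and 3.17%, against 10.5% in the main fit. For fluvastatin against 30 µM zoledronate at 24 h (10 called) the same settings gave 4 with no replicate block, then 3, 16, 17, 16 and 23, and 0 to 33, 32, 0 and 3. The matching shares of all genes were 1.99%, 3.18%, 7.56%, 13.1%, 8.48%, 9.23%, 0.814 to 8.64%, 9.66%, 0.793% and 1.66%, against 7.23% in the main fit. At 48 h (4 called) the spread of the compared arrays gave 0 and leaving out replicates 1 to 4 genes; without replicate 2, as without the pair, the median change turned to 0.09 and RRM2 to 0.66 (leaving out each replicate, -0.32 to 0.09 and -0.48 to 0.66), and without the pair TK1 turned to 0.22. Of all genes 7.59% were called at 48 h, 0% with the compared arrays and 2.31 to 7.38% leaving out replicates. For 100 µM at 24 h against 30 µM at 48 h (10 called, 8.23% of all genes) the counts were 4 with no replicate block (2.79%), 0 with the compared arrays (2.8%), 40 with array weights (15.8%), 0 to 38 leaving out replicates (1.57 to 9.01%) and 44 without the pair (14.7%). For the 48 h against the 24 h controls (0 called, 1.02% of all genes) the counts were 6 with the replicate block (5.98%), 22 with array weights (11.9%), 0 to 4 leaving out replicates (0.244 to 3.6%) and 4 without the pair (1.57%). Removing dim genes tests fewer genes, and the cause of the other shifts was not tested. With 4 arrays per group, standard errors of 0.12 leave changes of the size seen at 12 h unresolved.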
